A study of Mus musculus with 4 samples.

Results

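The accessible chromatin of trichostatin A-treated fibro/adipogenic progenitors (FAPs) was compared between old and young mdx mice. All regions called in the old TSA library (87416) and in the young TSA library (80122) were used, 167538 of the 308012 regions called in the 4 libraries of the study. A region was classed as shared when it overlapped a region of the other age by at least 1 bp, and otherwise as old only or young only. The mice were C57BL/6 mdx, which lack dystrophin and serve as a model of Duchenne muscular dystrophy. TSA was injected intraperitoneally each day for 15 days at 0.5 mg per kg per day, and the control mice received saline, although their treatment field reads none. FAPs were sorted from hind limb muscle as Sca-1 positive cells without Ter119, CD45, CD31 and α7 integrin. The labels give neither the ages of the young and old mice in weeks nor their sex, nor whether animals were pooled. With 1 library for each age there was no replicate, so every comparison below describes these libraries and has no p-value. The label FAPs could not be checked against marker genes, because the lists give positions in the mouse build mm9 and name no genes. Each region is a position and a width, with no count, score or height, so the sequencing depth behind it is unknown.

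FAPs are stromal cells of the muscle interstitium that support regeneration and can also give rise to fibroblasts and fat cells. TSA inhibits histone deacetylases, the enzymes that remove acetyl groups from histone tails, and acetylated histones are typical of open chromatin. NA-seq exposes intact nuclei to a restriction enzyme, which reaches its sites only in open chromatin, so a called region marks a stretch rich in accessible cutting sites. The comparison asks how far the accessible chromatin of dystrophic FAPs differs between the stages of the disease when both have been exposed to the inhibitor.

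A little over 1 of every 2 regions was common to the ages. Of the old TSA regions 52.0% (45482, 95% exact binomial interval 51.7 to 52.4%) overlapped a young TSA region, and of the young TSA regions 56.6% (45367, 56.3 to 57.0%) overlapped an old one. These intervals, like those below, cover counting error only and treat regions as independent. There were 41934 old only and 34755 young only regions, a ratio of 1.21, while the whole lists stood at 1.09 to 1. The shared regions were nearly equal in number in the lists. The ratio of the exclusive regions therefore lies further from 1 than that of the lists by construction. When regions that overlapped were merged across the lists, 121332 loci resulted, of which 36.8% were shared, 34.6% old only and 28.6% young only. Sequence covered in both libraries came to 75.1 Mb, against 74.7 Mb in old TSA alone and 66.2 Mb in young TSA alone. In the untreated libraries the corresponding overlap was 22.9% of the old control and 51.5% of the young control regions. The control lists differ much more in length (97139 and 43335 regions), so the 2 pairs of overlaps cannot be set against each other directly.

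Shared regions were wider than regions found at 1 age. Their median width was 1900 bp in both libraries, against 1400 bp for old only and 1500 bp for young only regions. Of the old only regions 17.6% had the smallest deposited width of 1000 bp, as had 17.4% of the young only regions, whereas 5.93% and 6.23% of the shared regions in the old and young lists did. Widths above 1900 bp were found for 24.6% of the shared regions of the old list and 26.7% of those of the young list, but for 4.95% of the old only and 6.05% of the young only regions. The share of regions found at the other age accordingly rose with width in both libraries. In the old list it was 26.7% (25.9 to 27.6%) at 1000 bp, 63.9% (63.3 to 64.4%) at 1900 bp and 98.7% (96.2 to 99.7%) at 5000 bp and over. In the young list the same widths gave 31.9% (30.9 to 32.9%), 65.4% (64.8 to 66.0%) and 98.1% (96.1 to 99.2%). A wide region has more sequence in which to meet another, which raises its overlap by construction. The rise was not even, however, as regions of 2000 to 2400 bp were shared in 83.2% and those of 2500 to 2900 bp in 81.9% of cases in the old list. The largest step in both lists lay between 1900 bp and the class of 2000 to 2400 bp, from 63.9% to 83.2% in the old and from 65.4% to 84.4% in the young list.

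**Figure D1:**
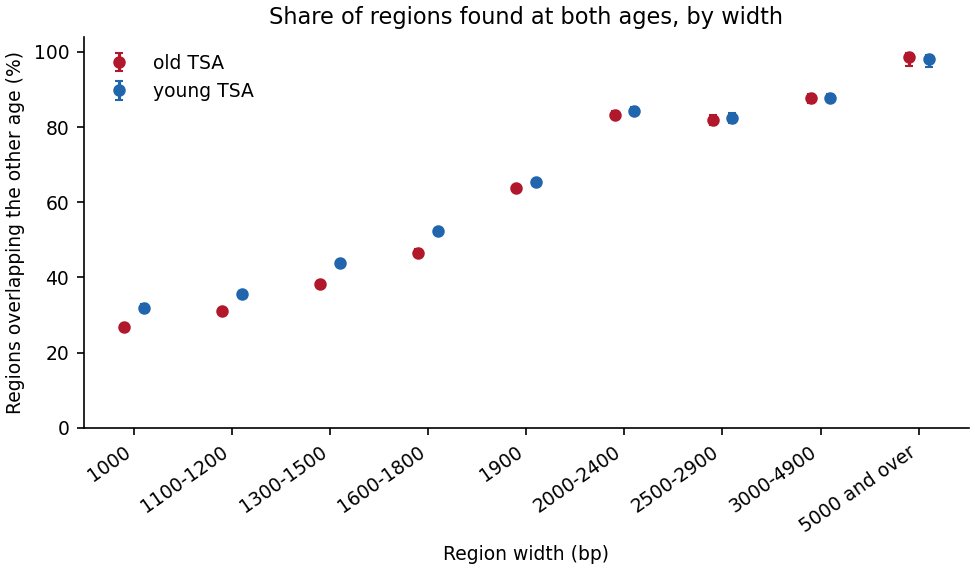
Share of the regions of each library (y axis, percent) that overlapped a region of the other age, by region width in bp (x axis). Points are old TSA (red) and young TSA (blue), with 95% exact binomial intervals, and both libraries climb from 26.7% and 31.9% at 1000 bp to 98.7% and 98.1% at 5000 bp and over.

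Where a region was found at both ages it was mostly the same stretch of chromatin. Among the shared regions, 90.3% of those in the old list and 90.5% of those in the young list overlapped a partner over at least 50% of both widths. A single partner was found for 44770 of the shared old regions, while 700 overlapped 2 young regions and 12 overlapped 3. In 43235 pairs each region overlapped only the other. Of these pairs, 25.8% (11149) had the same start and end at both ages, 41.7% had 1 edge in common and 32.5% had neither. Pairs with identical edges were mostly 1900 bp wide (69.2%). Exactly this width was also found for 37.9% of the shared old and 36.1% of the shared young regions. Over the whole lists it was found for 30.9% of the old and 31.2% of the young regions. The old region was the wider in 34.2% of the pairs and the young region in 36.4%, with a median difference of 0 bp and a mean of -28.6 bp (SD 660.6 bp) for old minus young. Over all shared regions, partners in several pieces included, the mean width was 1913 bp in the old and 1951 bp in the young list, and 7.25% and 8.85% of them were 3000 bp or wider. All edges lie on a grid of 100 bp.

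The widest shared regions formed blocks on chromosomes 1 and 11. The widest of the old list, chromosome 1 from 90135901 to 90157000, spanned 21100 bp and overlapped young regions of 28700 and 5600 bp, an old control region of 36200 bp and young control regions of 4200, 4900 and 5600 bp. It touched all 4 lists of regions that the authors gave as differing between TSA and control, both the higher and the lower ones at each age. The fifth widest, also on chromosome 1, ran from 90194601 to 90205600 (11000 bp) and was in none of those lists. On chromosome 11 the regions from 3037001 to 3055500, from 3056401 to 3068600 and from 3068701 to 3086500 spanned 18500, 12200 and 17800 bp. The young TSA library had regions of 18500 bp and 12200 bp at the first and second of these, and of 12100 and 4600 bp at the third. The first chromosome 11 region also touched all 4 lists of differing regions. The third touched all but that of regions lower with TSA in old mice, and the second only that of regions lower with TSA in young mice. A young control region of 44500 bp overlapped the second and the third. All 5 were called in both controls. Regions of 5000 bp or more numbered 223 among the shared old and 355 among the shared young regions, against 3 old only and 7 young only regions.

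The 5 widest regions of each age-exclusive class were all called in at least 1 control library. The widest old only region lay on chromosome 4 from 152745801 to 152751500 (5700 bp), 200 bp from the nearest young TSA region, and overlapped old control regions of 3300 and 3900 bp and a young control region of 1400 bp. It was followed by regions on chromosome 1 from 136210001 to 136215300 (5300 bp) and on chromosome 5 from 23165301 to 23170500 (5200 bp), both called in the old control and not in the young control. Both controls held a call at the fourth, chromosome 1 from 121283601 to 121288400 (4800 bp). One of the same width on chromosome 10 from 126678601 to 126683400 was called in the old control alone and was also in the authors' list of regions higher with TSA in old mice. All 5 were therefore called in the old control. The widest young only region, chromosome 12 from 100581501 to 100587600 (6100 bp), was called in both controls, as were those on chromosome 2 from 166667701 to 166673000 (5300 bp) and on chromosome 15 from 83392201 to 83397400 (5200 bp). The young only region on chromosome 10 from 111071901 to 111077600 (5700 bp) was called in the old control but not in the young control, and was in the list of regions higher with TSA in young mice. That on chromosome 4 from 62975101 to 62980600 (5500 bp) was called in the young control only. Among regions wider than 1900 bp, 31.2% of the 2077 old only and 24.9% of the 2103 young only regions were called in neither control. Of all TSA regions wider than 1900 bp, shared ones included, 10.6% in the old and 9.01% in the young list were called in neither.

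The classes were next followed into the control libraries, which played no part in defining them. Regions found at both ages under TSA were also the ones most often called without it. Of all old TSA regions 54.8% had a call in the old control and 25.9% had one in the young control, and of all young TSA regions 56.6% and 30.6%. For shared regions of the old list these shares were 72.4% (72.0 to 72.9%) and 39.5% (39.1 to 40.0%), with nearly the same values from the young list (72.6% and 39.6%). The classes found at 1 age were called in the old control equally often, in 35.8% of the old only (35.3 to 36.2%) and 35.8% of the young only regions (35.3 to 36.3%). They parted in the young control, which held 11.1% of the old only (10.8 to 11.4%) and 18.8% of the young only regions (18.4 to 19.2%). Neither control held 58.5% (24535) of the old only and 53.8% (18686) of the young only regions, against 19.9% of the shared ones in each list. Over the whole lists this was 38.4% of the old and 34.6% of the young TSA regions. Among regions called in exactly 1 control, the old control was the one in 84.1% (83.5 to 84.7%) of the old only, 84.2% (83.7 to 84.6%) of the shared old and 72.4% (71.7 to 73.2%) of the young only regions. For the whole lists it was the one in 84.1% of the old and 79.8% of the young TSA regions. The old control list is 2.24 times as long as the young control list, so these shares lie above 50% before any difference of age. Over all widths, old only regions thus stood where shared regions stood on this measure. For young only regions the old control's part of those called in exactly 1 control was lower than for the other classes, although still the larger part.

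**Figure D2:**
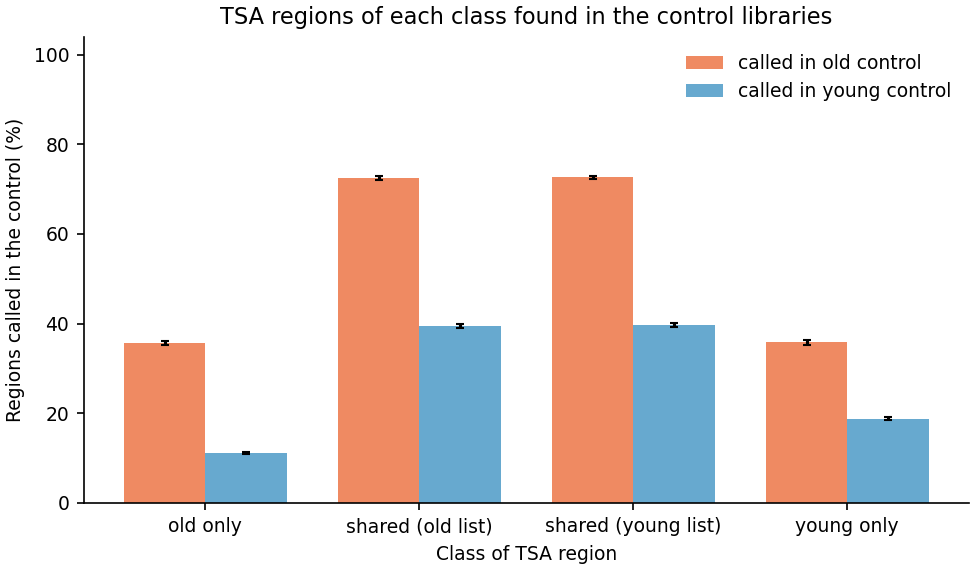
Share of TSA regions (y axis, percent) that overlapped a region of the old control (orange) or the young control (light blue), by class of TSA region (x axis), with 95% exact binomial intervals. Old only and young only regions have the same share in the old control (35.8%) and differ in the young control (11.1% and 18.8%).

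The share of regions called in the young control was higher for young only than for old only regions at each of 3 widths. At exactly 1000 bp, 9.67% (8.93 to 10.4%) of the young only regions were called in the young control against 7.04% (6.46 to 7.64%) of the old only regions. At 1900 bp the shares were 27.0% (26.1 to 28.0%) and 13.8% (13.1 to 14.5%), and above 1900 bp 43.2% (41.1 to 45.4%) and 21.3% (19.5 to 23.1%). The other measure was the old control's share among regions called in exactly 1 control. At 1000 bp it was 78.0% (76.0 to 79.9%) for young only and 83.2% (81.5 to 84.8%) for old only regions. Shared regions stood at 77.5% (75.1 to 79.8%) in the old and 83.9% (81.8 to 85.8%) in the young list. Young only regions at that width were thus near the shared regions of the old list and below those of the young list. At 1900 bp the old control's share was 68.3% (66.9 to 69.8%) for young only regions. It was 85.5% (84.7 to 86.2%) for shared old and 83.9% (83.1 to 84.7%) for shared young regions. In the old control the classes differed less and not always in the same direction. At 1000 bp it held 24.7% of the old only and 26.4% of the young only regions, at 1900 bp 46.8% and 43.6%, and above 1900 bp 62.3% and 58.2%. The equal shares of 35.8% over all widths thus covered opposite differences at 1000 bp and at 1900 bp and above. Widths of 1100 to 1800 bp were not followed by class into the controls.

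The authors' lists of regions that differed between TSA and control were then compared with the classes. Each of these lists was made with 1 of the TSA libraries compared here, so the overlaps are not independent of the classes. Regions higher with TSA in young mice (young gained) made up 10.3% of all young TSA regions, with 14.3% of the shared regions and 5.12% (4.89 to 5.36%) of the young only regions. In the old TSA list the share of young gained regions was 7.39% overall and 14.2% of the shared regions. Regions higher with TSA in old mice (old gained) made up 4.00% of all old TSA regions, 4.34% (4.14 to 4.53%) of the old only and 3.68% (3.51 to 3.86%) of the shared regions. Within the young list, the gained regions of young mice were thus more frequent among shared than among young only regions. Within the old list, the gained regions of old mice were spread over both classes at close to the overall share. Shared regions were also wider, and the part of width in these overlaps was not tested. Regions lower with TSA in old mice (old lost) were found for 2.31% (2.15 to 2.47%) of the young only and 1.95% (1.82 to 2.08%) of the shared young regions, near the overall 2.10%. Old gained regions were found for 2.02% of all young TSA regions, 3.56% of the shared and 0.00575% (2) of the young only ones. That contrast, too, largely restates the classes. Of the old TSA regions 1.22% were in the old lost list, with 0.489% of the old only and 1.89% of the shared regions. The short young lost list took up 0.126% of the old and 0.101% of the young TSA regions and is not followed further.

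Although the young library had fewer regions, the median gap between them was shorter, except on the X chromosome. The median gap from a region to the next of its list was 11400 bp (quartiles 4000 and 30325 bp) in young TSA and 12500 bp (4600 and 31100 bp) in old TSA. Gaps under 10 kb were 46.3% of all gaps in young and 43.5% in old TSA. At the same time the young list had more long empty stretches, with 212 gaps of over 500 kb against 85 in the old list. On the autosomes alone these were 127 and 49. On the X chromosome the median gap was longer in the young library, at 89700 bp against 55400 bp in the old one. The young list thus had both a shorter median gap and more long empty stretches than the old list. Its median 1 Mb window nevertheless held fewer regions, 24 against 29.

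Regions found at 1 age were nearer to other regions when they were young only. An old only region lay at a median of 9300 bp (quartiles 3200 and 24600 bp) from the nearest young TSA region, and a young only region at 6400 bp (2400 and 15100 bp) from the nearest old one. The part of the unequal list lengths in this order was not tested. Few of them just missed an overlap, with 4.93% of the old only and 6.28% of the young only regions within 500 bp of the other list. At the far end, 1716 old only regions (4.09%) and 289 young only regions (0.832%) lay more than 100 kb from any region of the other age. The most remote old only region, on chromosome 7 from 9053201 to 9054200, was 1630.7 kb from the nearest young TSA region and was called in neither control. The next were on the X chromosome, from 106207401 to 106208800 and from 106105001 to 106106100, at 1517 and 1506.1 kb. The most remote young only region, on chromosome 12 from 22660201 to 22661500, was 533 kb from an old TSA region. These remote regions were picked by distance once it was known.

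**Figure D3:**
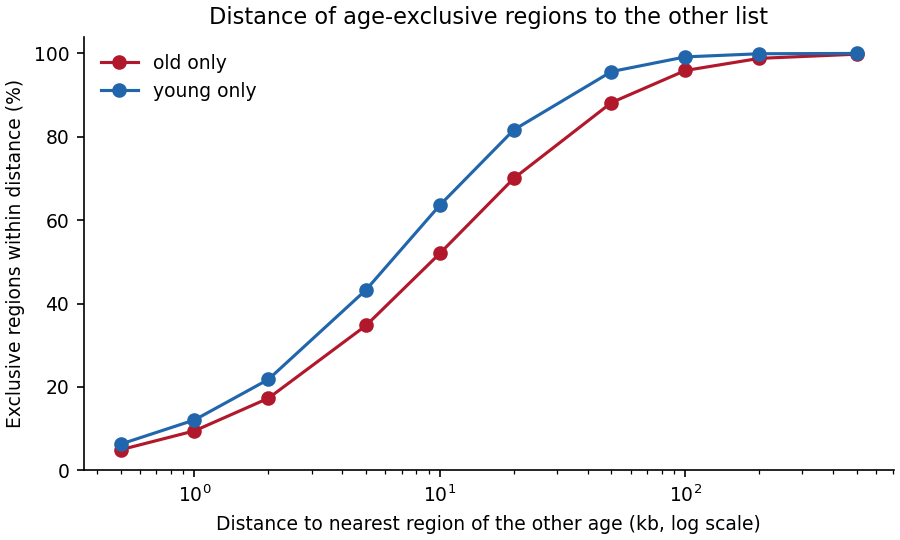
Cumulative share (y axis, percent) of old only (red) and young only (blue) regions that lay within a given distance (x axis, kb on a log scale) of the nearest region of the other age. The young only curve lies above the old only curve, with 63.6% against 52.1% within 10 kb.

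Regions of a class tended to follow each other along the chromosome. Among the merged loci, 39.3% of the old only loci were followed by a further old only locus, where old only loci made up 34.6% of all. Young only loci were followed by their own kind in 30.2% of cases, where they made up 28.6%. Shared loci were followed by shared loci in 39.5% of cases, where they made up 36.8%. For neighbours within 10 kb of each other, old only loci were followed by old only loci in 34.6% of cases and young only by young only loci in 30.8%, where 29.9% and 29.1% of all such next loci were old only and young only. Unbroken runs of 10 or more old only loci numbered 28, of which 10 were on the X chromosome, against 20 such runs of shared loci and 1 of young only loci. The longest old only runs had 18 loci each. That on chromosome 3 from 111831801 to 112452800 (621 kb) held 12 old control regions and 1 young control region, and that on the X chromosome from 58297701 to 61544200 (3246.5 kb) held 29 and 1. The next, on chromosome 1 from 112106901 to 112961500, had 17 old only loci with 15 old control and 2 young control regions. The longest young only run, chromosome 5 from 103070001 to 103229700 (159.7 kb), had 10 loci, and held 6 old control and 3 young control regions. A run holds no TSA region of the other age by definition, and the old control had at least 6 regions in each of these 4. These runs, too, were chosen by their length once it was known.

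At the scale of 1 Mb the libraries followed the same landscape. Over the 2574 windows with a region in any of the 4 libraries, the counts of old and young TSA regions had a Spearman correlation of 0.949 and a Pearson correlation of 0.948. For the controls the Spearman value was 0.879. These are correlations across windows, which are not independent and share base composition, mappability and cutting sites, so no p-value was computed. The median window held 29 old TSA regions (quartiles 16 and 47) and 24 young TSA regions (11 and 45). The fullest window held 136 in the old and 162 in the young library. The old library had more regions in 1756 windows, or 68.2%, and the young library in 693 (26.9%). In 18 windows there were old but no young TSA regions, and in 2 windows the reverse.

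The difference between the ages changed with the density of the window. Autosomal windows were put into 10 classes of nearly equal size by the summed regions of the controls, which were not used in the comparison of the TSA libraries. In class 1, the sparsest (0 to 20 control regions), a window held 10.6 ± 4.57 old and 6.64 ± 3.39 young TSA regions (SD over 249 windows), a ratio of 1.59. The ratio fell through each successive class, to 1.18 in class 5 and 1.01 in class 9. In class 10 (106 to 224 control regions) it was 0.957, with 82.4 ± 16.2 old and 86.2 ± 16.6 young TSA regions over 231 windows. Windows with more old than young regions were 79.9% of class 1 and 37.7% of class 10. The ratio of old to young TSA regions was thus highest in sparse windows, and in the densest windows the young library had slightly more. The difference in regions per window was 3.94 in class 1, highest in class 2 at 5.12 and -3.72 in class 10. The control libraries showed a fall of the same kind, from an old to young ratio of 4.39 in class 1 to 2.00 in class 10, although their own counts set the classes. Relative to the ratio of the whole lists, class 10 stood at 0.877 with TSA and 0.893 in the controls, and class 1 at 1.46 and 1.96. When density was taken from the old control alone, the ratios in the sparsest and densest classes were 1.49 and 0.996, and from the young control alone 1.64 and 0.912. The classes were devised after the window counts were seen.

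**Figure D4:**
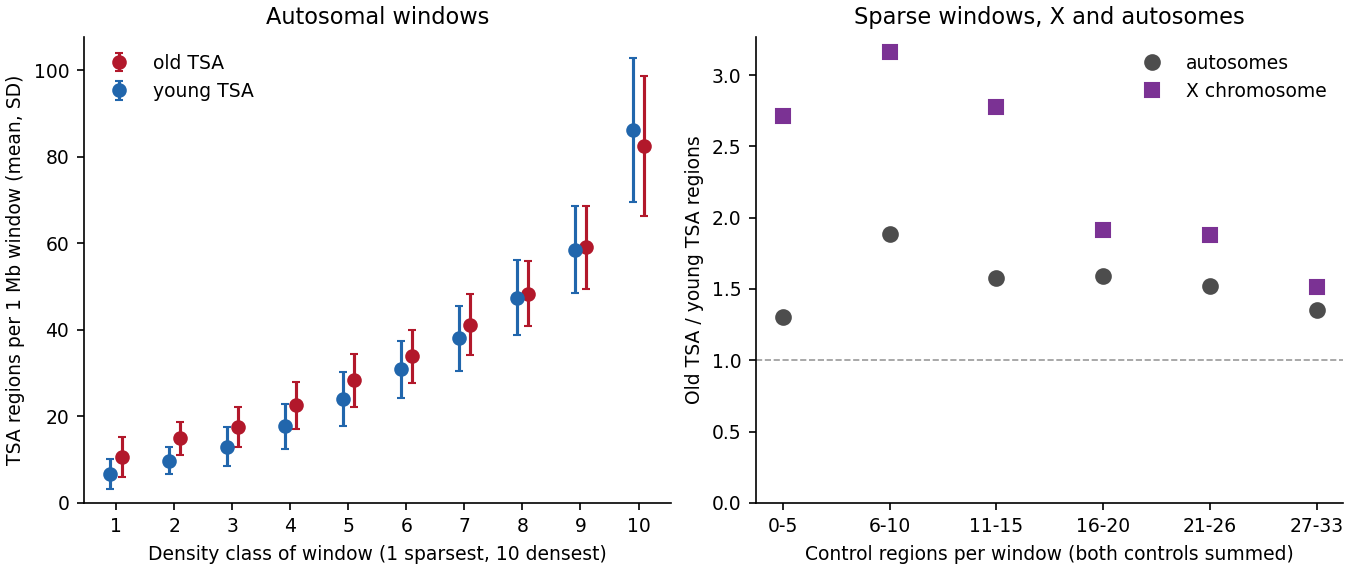
Left, TSA regions per 1 Mb autosomal window (y axis, mean with SD over windows) for old TSA (red) and young TSA (blue) in 10 density classes set by the controls (x axis). Right, ratio of old to young TSA regions (y axis) in sparse windows grouped by their number of control regions (x axis) on autosomes (grey circles) and X (purple squares); old exceeds young in class 1 by 10.6 to 6.64, and each X point lies above its autosomal counterpart.

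The windows with the largest differences lay on several autosomes. The largest old excess was in the window from 152 to 153 Mb of chromosome 4, with 119 old and 84 young TSA regions. It also contains the widest old only region named above, and 51 of its old regions were old only. The old control had 125 regions there and the young control 22. The windows from 27 Mb of chromosome 5 (63 old, 32 young), from 96 Mb of chromosome 16 (78 and 47), from 38 Mb of chromosome 7 (92 and 62) and from 82 Mb of chromosome 18 (71 and 41) followed. In these 5 windows the old control also exceeded the young control, by 38 to 103 regions, and it did so per 10000 regions of each list as well.

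Among the 5 windows with the largest young excess, 3 were on chromosome 11. The window from 101 Mb of that chromosome held 85 young and 51 old TSA regions, that from 116 Mb 86 and 53, and that from 68 Mb 82 and 51. The window from 132 Mb of chromosome 4 held 70 and 39, and that from 52 Mb of chromosome 7 held 117 and 87. Young only regions numbered 40 to 46 in each of the 5. In raw counts the old control exceeded the young control by 9 to 35 regions in every one of them, with a list 2.24 times as long. Per 10000 regions of each list the young control was above the old control in all 5, as with TSA. In the window from 101 Mb of chromosome 11, for example, these values were 10.8 in the young and 5.97 in the old control, and 10.6 in young and 5.83 in old TSA. The narrowest such difference in the controls, 6.00 against 5.87, was in the window of chromosome 4.

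Across all windows, each count was expressed as a share of its list and the age difference with TSA was set beside the age difference in the controls, which come from other libraries. The Spearman correlation of these differences was 0.508 over 2574 windows and 0.504 over the 2412 autosomal windows. Windows with relatively more old regions under TSA thus tended to have relatively more old regions in the controls.

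Chromosomes differed little in the balance of old and young regions, with the X chromosome apart. The old library had more regions on 17 of the 19 autosomes, with ratios of old to young from 0.987 on chromosome 11 to 1.15 on chromosome 16. The other autosome below 1 was chromosome 19, at 0.990. Old only regions per young only region ranged from 0.960 on chromosome 11 to 1.33 on chromosome 16 and stood at 1.19 over all autosomes. The share of old regions that were shared ranged from 47.1% on chromosome 3 to 56.0% on chromosome 11, and that of young regions from 53.6% on chromosome 19 to 59.4% on chromosome 8.

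On the X chromosome the old library had 1510 regions and the young library 727, a ratio of 2.08. Of the old X regions 23.8% (21.7 to 26.1%) were shared, against 52.5% on the autosomes. Of the young X regions 49.9% (46.2 to 53.6%) were shared, against 56.7% on the autosomes. There were 1150 old only and 364 young only X regions, a ratio of 3.16. Shared X regions numbered 360 in the old and 363 in the young list, so this ratio too exceeds that of all X regions by construction. The smaller number of young X regions also limits how many old X regions can be shared. The X chromosome thus took up 2.74% of all old only regions but 1.05% of the young only and 0.792% of the shared old regions. The excess ran along the chromosome and did not sit in a few places, since 146 of its 159 windows had more old and 5 had more young TSA regions. X windows are sparse, and sparse autosomal windows also had a higher ratio of old to young regions. Among windows with 11 to 15 control regions, the ratio was 2.78 on X (7.54 old and 2.71 young regions per window, 35 windows) and 1.58 on the autosomes (10.6 and 6.70, 66 windows). Among those with 21 to 26 it was 1.88 on X (13.2 and 7, 23 windows) and 1.52 on the autosomes (14.9 and 9.77, 240 windows). Matched on the summed controls, X windows held fewer young TSA regions than autosomal ones in every group, from 0 to 5 up to 27 to 33. The end groups differed by much less than the SD over windows, with 1.27 against 1.30 per window at 0 to 5 and 12.6 against 13.0 at 27 to 33. Old TSA regions were fewer on X in the groups from 6 to 26 control regions. They were more on X at 0 to 5 (3.45 against 1.70 per window) and at 27 to 33 (19 against 17.6). The part of sparseness in the X ratio was not tested.

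Old only regions of the X chromosome were called in the old control in 33.8% (31.1 to 36.6%) of cases, close to the 35.8% on the autosomes. The young control held 4.87% (3.70 to 6.28%) of them, against 11.3% on the autosomes. The controls also differed on the X chromosome, with 1991 regions in the old and 412 in the young control. Regions on chromosome Y were called in all 4 libraries, with 15 in old TSA, 18 in young TSA and 17 in each control.

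**Figure D5:**
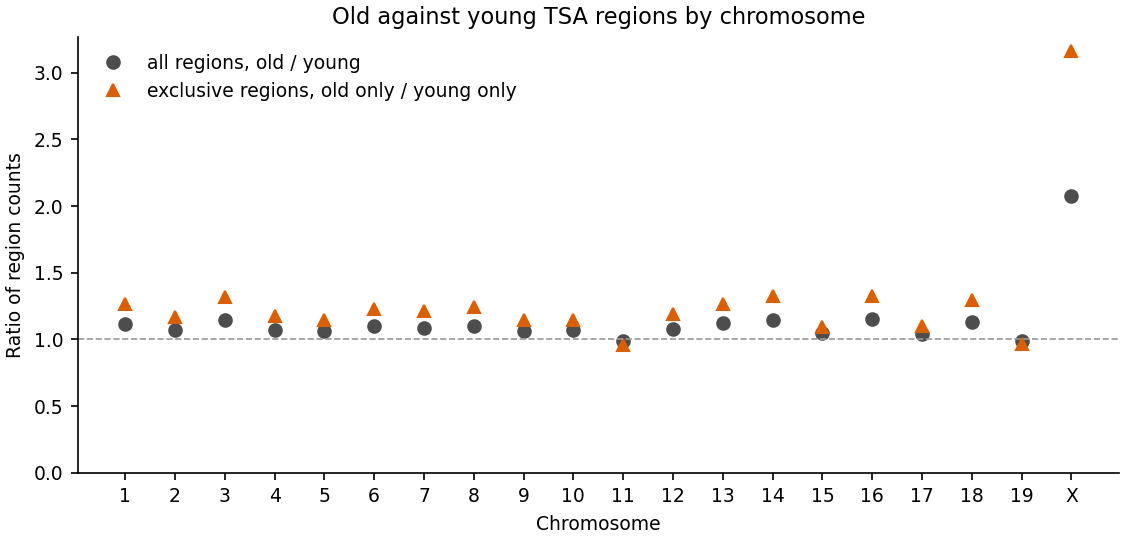
Ratio of old to young TSA region counts (y axis) on each autosome and X (x axis), for all regions (grey circles) and for regions exclusive to an age (orange triangles). The autosomes lie between 0.987 and 1.15 for all regions, and the X chromosome stands at 2.08 and 3.16.

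Of the chromosome Y regions with TSA, 14 in each list were shared, and the mitochondrial genome had the same 2 regions in both libraries, from 1101 to 3000 and from 3201 to 7500. Mitochondrial DNA is not packed into nucleosomes, so these regions say nothing about chromatin. Of the Y regions in the old list, 5 were repeated at identical coordinates in the young list. Over all chromosomes, 25.8% of the pairs in which each region overlapped only the other were identical.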

How the data were processed

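NA-seq libraries were made from sorted FAPs of 4 samples, 1 for each age and treatment. NlaIII or HpaII was applied to nuclei and Sau3AI to the DNA recovered from them, per the labels' protocols, so stretches without such sites cannot be called. The labels do not state whether NlaIII or HpaII was used for each library. Any difference of enzyme between the libraries could therefore not be told apart from a difference of age. The authors deposited lists of regions with a chromosome, a start and an end in bp, and no count, score or signal. Bowtie 0.12.7 and mm9 are named, per the submitters' processing notes; neither the region caller and its threshold, the handling of multiply mapping reads, nor the test behind the differential lists is stated there. Chromosome 1 regions reached 197091400 in young TSA, past the last gene end of 195291439 in the GRCm38 gene table at hand, so that table was not joined to the regions and no sequence was read.

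The lists were compared in Python 3.11.15 (pandas 2.3.3, numpy 2.4.6, scipy 1.17.1; plots by matplotlib 3.10.9), with 1 bp as the smallest overlap. Starts are printed counting from 1. Windows of 1 Mb took a region by its midpoint. Depth is unknown, so the precision of a call is too, and a region missing from a list was not called, which does not show that it was closed. The overlap functions were tested against direct enumeration. The comparison, the classes and the lists were chosen with earlier results of these data known. Regions named are the 5 widest of each class and the 5 windows with the largest difference in each direction (ties by chromosome number, then start). The alternatives tried were overlap of 50% of both widths, neighbours up to 500 bp apart treated as shared, regions of 1900 bp or wider, equal numbers of the widest regions, autosomes, regions under 1 kb apart merged, covered bp, and windows of 500 kb and 2 Mb.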

Additional observations from a re-analysis of the deposited data

Results flagged for a closer look

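Some counts were lower in old than in young mice with TSA and higher in old than in young mice without it. With a single library for each age and treatment, these opposite directions were not tested. Chromosome 11 had an old to young ratio of 0.987 with TSA and 1.85 in the controls, and chromosome 19 had 0.990 and 1.92. As a share of each list, chromosome 11 took up 5.62% of old TSA and 6.21% of young TSA regions, and 5.26% and 6.36% in the old and young controls, so the direction was the same on that scale. Chromosome 19 likewise took up 2.20% and 2.42% with TSA and 2.14% and 2.50% in the controls.

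In class 10 of the autosomal windows, the densest, the ratio was 0.957 with TSA and 2.00 in the controls, whose counts set the class. Relative to the ratios of the whole lists these were 0.877 and 0.893, both below 1. The windows with the largest young excess under TSA were also opposed in raw counts. Old minus young regions came to -34 with TSA and 11 in the controls in the window from 101 Mb of chromosome 11, to -33 and 9 in that from 116 Mb and to -31 and 23 in that from 68 Mb. They came to -31 and 31 in the window from 132 Mb of chromosome 4, and to -30 and 35 in that from 52 Mb of chromosome 7. The old control list is 2.24 times as long as the young control list. Per 10000 regions of each list, the old library was below the young library in all 5 windows, with TSA and in the controls, so that the opposite signs are those of raw counts only.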

How the results depend on the processing

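No paired analysis was possible because each group has 1 library, and for the same reason no replicate could be left out. Of 38 alternatives over 10 results, 6 stayed at the first value or within its 95% interval, 31 moved and 1 changed direction. Of the 6, 3 concern the X chromosome share of old over young TSA, 1.90 (1.74 to 2.08). The share of old TSA regions that were shared, 52.0%, became 47.0% with a reciprocal overlap of 50%, 54.4% with a gap of 500 bp, 53.3% for regions of 1900 bp or wider, 54.3% with equal numbers of the widest regions, 52.5% on autosomes, 52.5% after merging and 50.1% by covered bp. The share of young TSA regions, 56.6%, became 51.2%, 59.3%, 54.6%, 54.3%, 57.7% and 53.2% under the same settings without the autosomes. The ratio of old only to young only regions, 1.21, became 1.19, 1.22, 1.05, 1.19 on autosomes, 1.24 after merging and 1.13 by covered bp. With equal numbers it was 1.00 (0.99989), below 1, which the equal list lengths bring about by construction. The median gap was 1100 bp longer in old TSA, and 1000 bp longer on autosomes and after merging. The correlation over windows, 0.949, was 0.919 for 500 kb, 0.967 for 2 Mb and 0.943 on autosomes. The share of old only regions called in the old control was 32.5% with reciprocal overlap and 36.3% for regions of 1900 bp or wider, and that of young only regions in the young control 16.8% and 15.1%. This width limit was set on the control and TSA lists alike, so these shares lie below those of wide regions against whole control lists. The ratio of old to young regions in the sparsest class over that in the densest, 1.67, was 1.79 with density from the young control, 1.49 from the old control and 1.93 for TSA regions of 1900 bp or wider. These density settings were chosen after seeing the data. The cause of these shifts was not tested. Unknown depth limits what a missing call can show.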
